A study of Mus musculus with 3 samples.

Results

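Matricellular proteins are secreted into the extracellular matrix and modulate how cells adhere to it, rather than serving mainly as its scaffold. The genes described are 2 tenascins (Tnc, Tnn), periostin (Postn), SPARC (Sparc), 2 thrombospondins (Thbs1, Thbs2), CCN4 (Ccn4) and fibronectin (Fn1), 8 of the 18193 genes named on the array. They were chosen by name, as the 16 probe sets to which the platform annotation gives 1 of these symbols and no other. The choice of names was made with earlier results of these data known. RNA came from dental papillae, the mesenchyme inside the tooth germ from which odontoblasts and pulp arise, of ICR mice, an outbred stock, at embryonic day 16 (E16), embryonic day 18 (E18) and postnatal day 3 (P3). The papillae were separated with enzyme from germs of the lower first molar and pooled, more than 20 to a sample, and the RNA was labelled with biotin after 2 cycles of amplification. Each stage has 1 array of 1 pooled sample, so there is no test and no p-value, and each statement compares 3 samples. No genetic change or treatment distinguishes the groups, only stage.

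Tenascins are large glycoproteins that loosen the adhesion of cells to fibronectin, and in tooth germs tenascin C is a known component of the dental mesenchyme. SPARC binds collagen and calcium and is abundant in mineralising matrix, CCN4 is a secreted protein first described as a Wnt-induced factor, thrombospondins bind growth factors and cell-surface receptors, and periostin links collagen and tenascin in the periosteum and the periodontal ligament. Fibronectin forms the fibrils on which several of these proteins are deposited, and it is concentrated where odontoblasts meet the basement membrane.

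The deposited values are ratios, with the middle of the 3 values at 1 for 90.4% of probe sets and whole multiples of a step for the others, so a signal was recovered from the whole-number steps of the values. The recovered signal is in the scaled units of the arrays. It may be too low by a common factor, but the ratios between stages are those deposited. Signals below 82.0, the median over all probe sets and arrays, were set to that floor before differences were taken. A difference with 1 side below it is a bound, written "at least", and a gene below it on both arrays was not measured in that comparison. Bacterial control probe sets reached at most 70.2. Signals of different genes are not compared with each other, since each probe set has its own brightness.

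Between E16 and P3, Tnc, Ccn4 and Sparc were 14.5-fold, 10.5-fold and 6.67-fold higher by the brightest probe set of each gene, and Thbs1 was at least 2.42-fold lower. Fn1, Thbs2 and Postn differed by less than 2-fold, and Tnn was below the floor on all 3 arrays. Thus 7 of the 8 genes were measured, of which 3 passed 2-fold upward at P3 and 1 downward. Over all 12189 genes measured in the same comparison, 6.56% were higher by that threshold and 15.6% lower. The median log2 difference was 0.48 over the 7 genes and -0.17 over all genes. Since the members were chosen with earlier results of these data known, the all-gene values are a background and not a test. Of the 8 genes, 6 reached the floor on every array by their brightest probe set, among them Tnc, Ccn4 and Sparc, so these did not enter the comparison only through the stage at which they were high.

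From E16 to E18, 2 of 7 measured genes were at least 2-fold higher (Tnc and Ccn4) and 1 lower (Thbs1), where 8.10% of all genes were higher and 8.13% lower. From E18 to P3, 3 of 7 were higher (Tnc, Sparc and Ccn4) and 0 lower, where 4.07% of all genes were higher and 11.8% lower. The medians of the 7 genes were -0.22 and 0.71 for these steps, beside -0.04 and -0.15 over all genes. By single probe sets, 6 of 14 measured were higher and 1 lower at P3 against E16 (6.19% and 15.0% of all measured probe sets), 6 of 14 higher and 0 lower at P3 against E18 (3.85% and 11.1%), and 2 of 12 higher and 1 lower at E18 against E16 (7.77% and 8.02%). Of those higher at P3, 1 of Tnc (1456344_at) and 1 of Ccn4 (1448594_at) reached the floor only at P3. These were measured only through the stage at which they were high and could not have come out lower. The 3 comparisons share arrays and are not independent of each other. In bulk RNA, a larger share of cells that express a gene and more RNA per cell cannot be told apart.

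**Figure D1:**
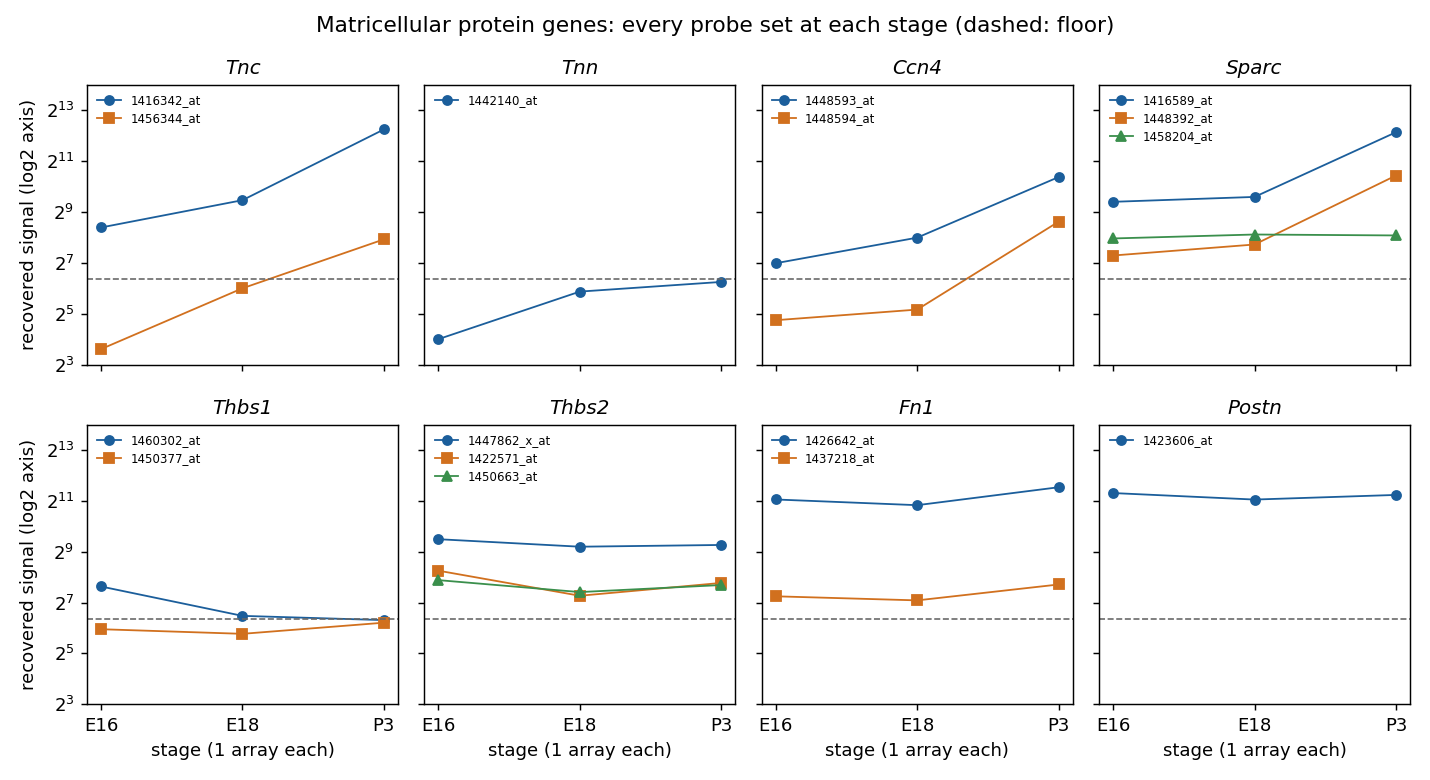
Recovered signal (log2 axis, scaled array units) of every probe set of the 8 genes at E16, E18 and P3, with 1 array per stage, 1 line per probe set and the floor of 82.0 as a dashed line. Both probe sets of Tnc and of Ccn4 and 2 of 3 of Sparc were highest at P3, while every step of Fn1, Thbs2 and Postn was under 2-fold, up to 1.98-fold for 1 Thbs2 probe set.

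Tenascin C was the member with the largest difference. Its brighter probe set (1416342_at) had recovered signals of 336 at E16, 708 at E18 and 4873 at P3. The signal was thus lowest at E16 and highest at P3, and all 3 values lay above the floor. The differences were 2.11-fold from E16 to E18 and 6.89-fold from E18 to P3. Of all genes measured at P3 against E16, 0.11% had a log2 difference at least as high, the gene itself included. The second probe set (1456344_at) read 12.2, 64.1 and 243, so only its P3 value was above the floor, and it gave at least 2.97-fold for P3 against either earlier stage. Both probe sets were thus highest at P3, and the second gives no order of E16 and E18, since both its values were within the range of the bacterial controls.

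Tenascin W (Tnn), a relative of tenascin C found mainly in developing bone and stem-cell niches, was represented by 1 probe set (1442140_at). It read 16.0 at E16, 58.5 at E18 and 76.2 at P3. All 3 values were below the floor, and those at E16 and E18 were within the range of the bacterial controls, so no difference was called. Its 3 values are therefore given with no order or fold. Because a recovered signal can be too low by a common factor, which held for 17.2% of those whose steps were known, the true signals may lie higher. The brain tenascin Tnr (2.66, 6.37 and 4.50) and Tnxb (10.5, 15.6 and 8.90), from the list of other matricellular genes, were also below the floor on every array.

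CCN4, a growth-regulating protein of bone and tooth mesenchyme, was also highest at P3. The brighter probe set (1448593_at) had signals of 127 at E16, 255 at E18 and 1330 at P3. It was 2.01-fold higher at E18 than at E16, close to the 2-fold threshold, and 5.22-fold higher at P3 than at E18. The other probe set (1448594_at) read 26.8, 35.9 and 394, which gave at least 4.81-fold for P3 against each earlier stage. Its values at E16 and E18 were within the range of the bacterial controls and have no order.

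SPARC differed from Tnc and Ccn4 in the first step. Its brightest probe set (1416589_at) had signals of 677 at E16, 774 at E18 and 4513 at P3, so the embryonic stages lay close together and P3 stood apart. The differences were 1.14-fold from E16 to E18 and 5.83-fold from E18 to P3. The second probe set (1448392_at) read 157, 211 and 1387, which is 8.86-fold for P3 against E16. The third (1458204_at) read 249, 278 and 271, a difference of 1.09-fold, and did not show the increase. The size of the Sparc difference therefore depends on the probe set, with a mean log2 difference from E18 to P3 of 1.74 over all 3 against 2.54 by the brightest.

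Promoter sequence is shown for the members in the RefSeq table, to set genes with the largest differences at P3 beside members with smaller or no measured differences. Of the 8 genes, 5 were in the table (GRCm38.p6); Ccn4, Thbs1 and Fn1 were not matched. A search of the 250 bases before each start, on both strands, used 2 forms of the TATA box (TATATAA and TATAAA, which overlap where both match), the AP-1 site TGACTCA and the RUNX core TGTGGT. Among 32851 windows of this length, 3.04% held TATATAA, 12.4% TATAAA, 4.46% TGACTCA and 14.0% TGTGGT. The windows of the upstream start of Tnc (chr4:64047016-64047265, minus strand) and of Sparc (chr11:55420081-55420330, minus strand) follow, 5′ to 3′, with motif matches in capitals.
Tnc upstream start: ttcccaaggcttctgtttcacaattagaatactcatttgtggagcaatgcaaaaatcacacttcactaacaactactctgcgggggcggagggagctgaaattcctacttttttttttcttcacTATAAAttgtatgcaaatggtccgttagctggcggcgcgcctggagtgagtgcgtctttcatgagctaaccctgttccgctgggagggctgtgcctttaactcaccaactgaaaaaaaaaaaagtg
Sparc: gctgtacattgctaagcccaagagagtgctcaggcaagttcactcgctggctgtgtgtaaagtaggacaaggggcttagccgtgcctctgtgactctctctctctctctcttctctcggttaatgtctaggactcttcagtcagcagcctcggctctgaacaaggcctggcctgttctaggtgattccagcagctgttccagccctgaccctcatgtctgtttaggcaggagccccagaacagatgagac
The Tnc window held 1 match to TATAAA, whose first base lay 126 bases before the start, and the Sparc window held none of the 4 motifs. Among members with smaller or no measured differences, the Thbs2 window also held TATAAA, on the opposite strand and at the same 126 bases, and the windows of Tnn and of the upstream Postn start held none. Any link of these matches to expression was not tested.

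Both Tnc and Postn have a second, downstream start in the table, and the 30 bases from 45 to 16 before a start, where a TATA box would lie, are set side by side for 5 genes. In such windows 0.64% of all starts held TATATAA and 2.14% TATAAA on the gene's strand. The windows are those of Tnc (chr4:64046952-64046981, minus strand), Postn (chr3:54361062-54361091, plus strand), Sparc (chr11:55420096-55420125, minus strand), Tnn (chr1:160153591-160153620, minus strand) and Thbs2 (chr17:14694278-14694307, minus strand), with TATA box matches in capitals.
Tnc downstream start: agaggaaggagctcccTATATAAgcctgcc
Postn downstream start: ctcccacagcccagagcTATATAAActcag
Sparc: tgaccctcatgtctgtttaggcaggagccc
Tnn: tgtcatagccttgatttaaacccagggagg
Thbs2: ctgtctggaaagcctgggtggacctgtagg
TATATAA was found before the downstream starts of Tnc, 29 bases before the start, and of Postn, 28 bases before it. From E16 to P3 Tnc differed by 14.5-fold and Postn by 1.05-fold. Which start is used in the papilla, and any link of the match to expression, was not tested. Sparc, with a difference, and Tnn and Thbs2 had none in this window. The same window before the upstream starts of Tnc (chr4:64047031-64047060) and Postn (chr3:54359222-54359251) also held none.

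Thrombospondins, which hold back blood vessel growth among other functions, did not pass 2-fold upward in any of the 3 comparisons. The brighter Thbs1 probe set (1460302_at) had signals of 198 at E16, 89.0 at E18 and 79.3 at P3. The E16 value stood apart, and the later values were close to the floor. E18 lay 2.23-fold below E16, and P3 at least 1.09-fold below E18. The second probe set (1450377_at) read 61.9, 54.5 and 73.9, below the floor on every array, and gives no order.

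Thbs2 was measured by 3 probe sets, all lowest at E18 and highest at E16. The brightest (1447862_x_at) read 720, 587 and 615 at E16, E18 and P3. The second (1422571_at) read 305, 154 and 219, and the third (1450663_at) 236, 170 and 206. At E18 against E16 the differences were 1.23-fold, 1.98-fold and 1.39-fold lower, so the second fell just short of 2-fold. At P3 against E16 they were 1.17-fold, 1.40-fold and 1.14-fold lower. The direction of the brightest depended on scaling, with a log2 difference of -0.23 as deposited and 0.15 after quantile normalization.

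Fibronectin had nearly the same profile by both probe sets. Signals of the brighter one (1426642_at) were 2126 at E16, 1820 at E18 and 2968 at P3, and of the other (1437218_at) 152, 136 and 209. P3 was 1.40-fold and 1.38-fold above E16, and 1.63-fold and 1.54-fold above E18. The brighter probe set passed 2-fold from E18 to P3 after quantile normalization, where its log2 difference was 1.15 in place of 0.71.

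Periostin, whose 1 probe set (1423606_at) read 2533 at E16, 2121 at E18 and 2407 at P3, differed least. P3 was 1.05-fold lower than E16 as deposited, and the log2 difference of -0.07 became 0.21 after quantile normalization. Its 3 values lay within 1.19-fold of each other.

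**Figure D2:**
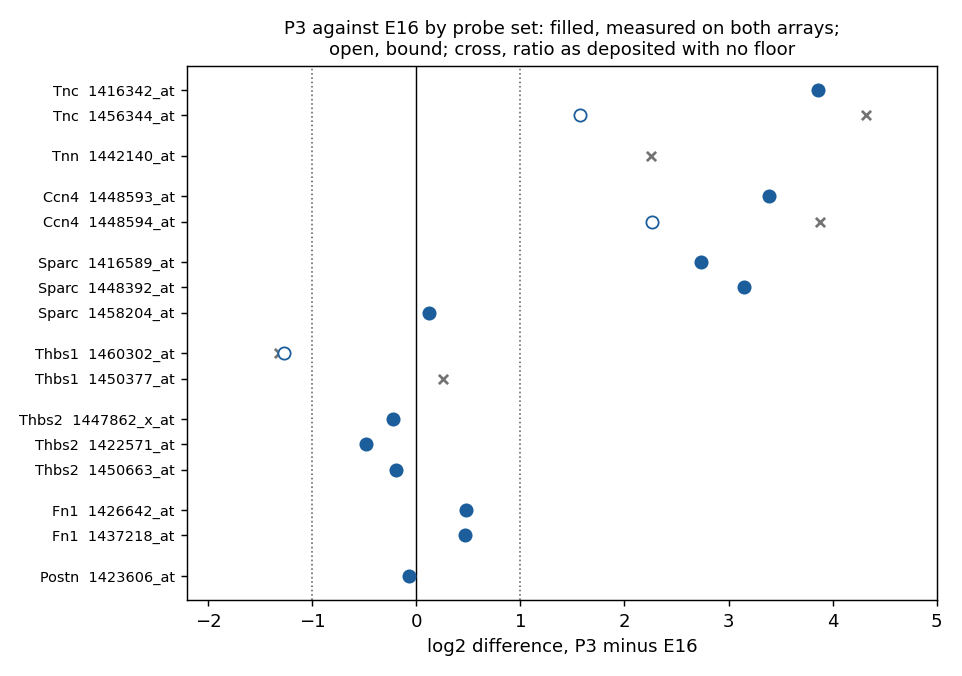
Log2 difference of P3 minus E16 for each of the 16 probe sets, filled where both arrays were at or above the floor, open where the value is a bound, and crossed for the deposited ratio with no floor; dotted lines mark 2-fold. Both probe sets of Tnc and Ccn4 and 2 of 3 of Sparc lie right of the 2-fold line, and the third Sparc probe set lies near 0.

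With no replicates, how far probe sets for 1 gene differ is the nearest look at measurement error, and it misses any error that a whole sample shares. Among genes with several probe sets at or above the floor on both arrays, the SD of log2 differences between probe sets of a gene was 0.61 at P3 against E16 (3982 genes), 0.54 at P3 against E18 and 0.61 at E18 against E16. The P3 against E16 differences of Tnc (3.86), Ccn4 (3.39) and Sparc (2.74) were larger than this SD, while those of Fn1 (0.48), Thbs2 (-0.23) and Postn (-0.07) were smaller. The Sparc probe sets themselves gave 2.74, 3.15 and 0.12, the last smaller than this SD. That of Thbs1 (-1.27) is a bound with its P3 value below the floor, and the SD does not cover such values. At E18 against E16 the differences of Tnc (1.07), Ccn4 (1.01) and Thbs1 (-1.16) exceeded the SD, and that of Sparc (0.19) did not.

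**Figure D3:**
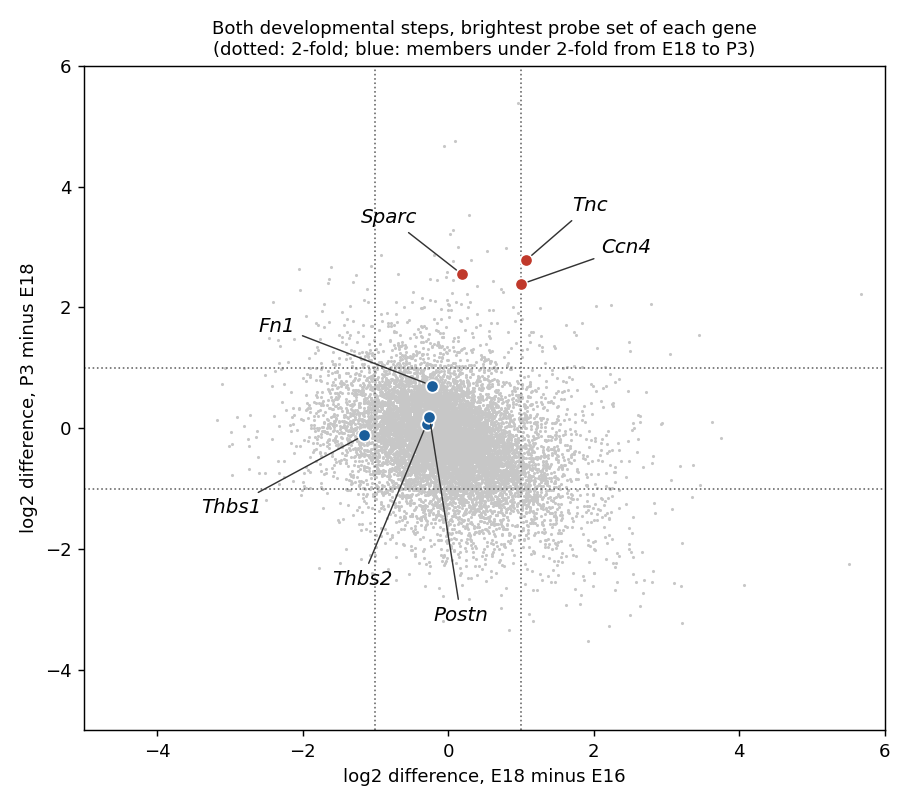
Log2 difference of E18 minus E16 (horizontal) against P3 minus E18 (vertical) for the brightest probe set of each gene measured in both steps, with members labelled and dotted lines at 2-fold. Tnc and Ccn4 lie at 1.07 and 1.01 across and 2.78 and 2.38 up, Sparc at 0.19 and 2.54, and Thbs2, Postn and Fn1 lie in the main cloud of genes.

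The genes whose pair of steps lay nearest to that of a member were found by Euclidean distance of the 2 log2 differences, over 3 arrays and among the 9860 other genes that reached the floor on each. Nearest to Tnc were the sialyltransferase gene St8sia6 (distance 0.34), Ccn4 (0.41) and the proteoglycan gene Bcan (0.41), and 4 genes lay within 0.5. Nearest to Sparc were Col1a2 (0.06), which encodes a chain of type I collagen, Cyfip2 (0.21) and Nav3 (0.23), and 10 genes lay within 0.5. For Postn, near the centre of the distribution, 2441 genes lay within 0.5, the nearest being Cldn34c1, Tmem80 and Gm13306 (0.0014, 0.0054 and 0.013).

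Other matricellular genes went both ways. Of 25 named on the array, 20 were measured at P3 against E16, with 4 past 2-fold upward and 5 downward. Of all genes, 6.56% passed it upward and 15.6% downward. The median of the list was 0.24 on the log2 scale, beside -0.17 over all genes. The sign of that median depended on the processing, at -0.06 with the floor at 2 times the median and -0.00067 with the mean over probe sets. Sparcl1, the nearest relative of Sparc, had signals of 109, 208 and 553 at E16, E18 and P3, a difference of 5.09-fold from first to last. Tgfbi, a fasciclin-domain protein related to periostin, read 393, 938 and 1724, which is 4.39-fold (2.45-fold to 5.78-fold by all its probe sets). Ccn2, a relative of Ccn4, read 114, 274 and 278, so its 2.45-fold difference lay in the first step, and Fbln7 was at least 3.86-fold higher at P3.

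Among those lower at P3, Smoc2, a SPARC-related calcium-binding protein, read 4554, 1158 and 599, which is 7.61-fold (1.99-fold by a second probe set). Thbs4, a thrombospondin of tendon, read 705, 74.1 and 137, which is 5.15-fold. Spock1, another SPARC-related gene, was at least 3.56-fold lower (1.17-fold by another probe set). Relatives of SPARC thus differed in both directions. From E16 to E18, 3 of 18 measured genes of this list were higher and 5 lower (median -0.11). Of all genes, 8.10% were higher and 8.13% lower. From E18 to P3, 2 of 20 were higher and 1 lower (median 0.17), beside 4.07% and 11.8% of all genes.

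**Figure D4:**
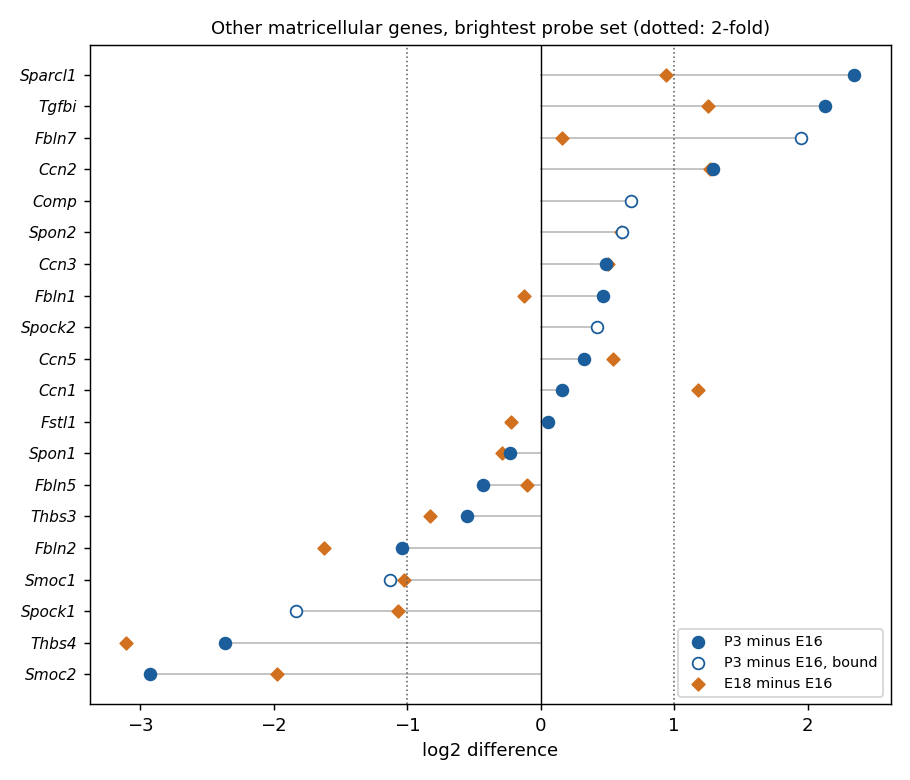
Log2 difference from E16 for the 20 other matricellular genes measured at P3 against E16, at P3 (circles, open where a bound) and at E18 (diamonds, where measured); dotted lines mark 2-fold. Sparcl1, Tgfbi, Fbln7 and Ccn2 lie right of the upper line, and Smoc2, Thbs4, Spock1, Smoc1 and Fbln2 left of the lower.

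Receptors of these proteins were mixed as well. Of 22 genes, 20 were measured at P3 against E16, with 5 higher and 3 lower at 2-fold and a median of 0.15. Of all genes, 6.56% were higher and 15.6% lower. The collagen receptor gene Ddr2 read 808, 753 and 2638 (3.27-fold higher, 1.74-fold by another probe set), with its difference in the second step. Itga4, whose product binds fibronectin, read 179, 970 and 551 (3.08-fold higher, as low as 1.53-fold by others). Annexin A2 (Anxa2) was 2.56-fold, the scavenger receptor gene Stab1 2.62-fold and the thrombospondin receptor gene Cd47 2.33-fold higher (1.07-fold by 1 of its other probe sets). With the mean over probe sets only Itga4, Stab1 and Ddr2 stayed past 2-fold upward, and Anxa2 and Cd47 did not. The shared integrin chain Itgb1 read 1186, 446 and 448 and was 2.65-fold lower, while Itgav, 1 of its several partners in binding fibronectin, was 1.21-fold higher. From E16 to E18, 5 of 21 were higher and 4 lower, beside 8.10% and 8.13% of all genes. The median of 0.14 turned to -0.20 with the mean over probe sets or without probe sets whose names end in _x_at or _s_at. From E18 to P3, 2 of 20 were higher and 3 lower, beside 4.07% and 11.8% of all genes. The median of -0.19 turned to 0.24 after quantile normalization.

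Matrix proteins that bind the members or are processed with them were higher or under 2-fold at P3 against E16. Of 14 genes, 5 exceeded 2-fold upward between E16 and P3 and 0 downward, with a median of 0.27. The shares of all genes were 6.56% and 15.6%. Decorin (Dcn), which coats collagen fibrils, read 401, 2243 and 6018, so it was higher at E18 already, and the collagen cross-linking enzyme gene Lox read 379, 579 and 3146. Col1a2 read 875, 970 and 5527, with its difference in the second step like Sparc. Col12a1 was 2.68-fold higher. The probe sets of Col1a1 disagreed, giving 2.04-fold and at least 81.1-fold. From E16 to E18, 1 of 14 was higher and 2, Col5a2 and Bmp1, lower (median 0.43), beside 8.10% and 8.13% of all genes. From E18 to P3, 5 were higher and 0 lower (median 0.69), beside 4.07% and 11.8% of all genes.

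TGF-beta, a known inducer of several matricellular genes, had 9 measured ligand, receptor and response genes, of which 3 passed 2-fold upward from E16 to P3 and 0 downward (median 0.59). The shares of all genes were 6.56% and 15.6%. The ligand gene Tgfb2 read 390, 2163 and 1868 (4.79-fold higher, 1.17-fold to 7.77-fold by all its probe sets), Skil was 3.09-fold and the receptor gene Tgfbr2 2.12-fold higher. Tgfb1 was 1.86-fold higher, under the threshold. From E16 to E18, 2 were higher and 2 lower (median 0.05), beside 8.10% and 8.13% of all genes. From E18 to P3, 2 were higher and 0 lower (median 0.20), beside 4.07% and 11.8% of all genes.

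Markers of the papilla and of other tissue moved across the same arrays. Of all genes, 6.56% were past 2-fold upward and 15.6% downward at P3 against E16, and 8.10% and 8.13% at E18 against E16. Of the 6 papilla and odontoblast markers on the array all were at or above the floor at E18 and P3 and 4 at E16, when Dspp and Dmp1 were below it. Their summed signal was 5422 at E16, 9897 at E18 and 23220 at P3. By gene, 2 of the 6 were higher and 3 lower both at E18 and at P3 against E16, with median log2 differences of -1.08 and -0.36. Of 8 macrophage markers, 4 passed 2-fold upward from E16 to P3 and 0 downward, with sums of 2115, 4212 and 7669. Only 4 of these 8 reached the floor at E16, and all 8 did at P3. A marker below the floor at E16 was measured only through the later stage and could not have come out lower. Of 8 epithelial markers 0 passed it upward and 4 downward, with sums of 6611, 18633 and 3663. At E18 against E16, 7 of the 8 were higher and 0 lower. From E18 to P3, 0 were higher and 8 lower, beside 4.07% and 11.8% of all genes. The 4 enamel genes were all higher at P3 against E16, with sums of 934, 3934 and 11019.5. Only 1 of the 4 reached the floor at E16, so the differences of the others are bounds that could only point upward. Cartilage markers summed to 443, 758 and 1007 (2 of 4 measured higher). Only 2 of those 4 reached the floor at E16, so the same limit holds for the others. Platelet markers summed to 461, 644 and 1096 (1 of 3 higher, Ppbp and Gp9 below the floor throughout). Bone markers summed to 2093, 1632 and 2333 (1 of 3 higher, 1 lower). Markers of dental follicle, tendon and ligament summed to 1226, 538 and 803 (1 of 5 higher, 3 lower). Endothelial sums were 3110, 1463 and 1480 (1 of 4 lower), mural cell sums 1313, 2884 and 2304 (1 of 4 higher) and Schwann cell sums 274, 153 and 233 (0 of 1 either way). The median log2 differences of the mural cell markers were -0.26 at E18 and -0.35 at P3 against E16, opposite in sign to the change of their sum. A sum follows its brightest probe sets and does not measure the share of a cell type. Of 5 skeletal muscle markers, 4 were below the floor throughout. The part of these tissues in the differences of Tnc, Ccn4 and Sparc was not tested.

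The arrays also differed in technical controls. The 18 hybridisation control probe sets read a median 2.17 times as high at E18 as at E16 and 1.04 times at P3, and the 3′ over 5′ ratio of actin was 3.87 and 2.46 times that at E16, while that of Gapdh was 1.42 and 0.36 times. Their part in the results was not tested. Of all genes past 2-fold at P3 against E16, 29.6% were higher as deposited and 49.0% after quantile normalization; from E18 to P3 these shares were 25.7% and 47.7%. At P3 against E16 the all-gene median was -0.17 as deposited and 0.02 after that normalization. Relative to that median, the Tnc, Ccn4 and Sparc differences kept their direction and stayed past 2-fold.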

How the data were processed

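RNA of 3 pooled samples of mouse dental papillae, 1 per stage, was hybridised to an oligonucleotide array. GCOS is named, with no version, per the submitters' processing notes; how the arrays were scaled is not given in the sources used. The deposited values are ratios. The middle value of a probe set was 1 for 90.4% of 45101; the rest held whole multiples of a step, 0.718 (E16) and 1.08 (E18) relative to P3.

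The smallest number of steps matching all 3 arrays within a relative 3e-07 gave a signal (Python 3.11.15, numpy 2.4.6, pandas 2.3.3; figures with matplotlib 3.10.9). The method was run on data simulated from the recovered signals, which cannot show whether real bright signals are recovered. Middle signals above 492, such as those of the brightest Tnc, Sparc, Thbs2, Fn1 and Postn probe sets, may be chance solutions. Signals served for the floor and to pick the brightest probe set of a gene, by mean signal. The annotation gave 1 symbol to 34945 probe sets and several to 932, and did not list 9160. Log2 differences used signals floored at 82.0.

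Named were the 8 members, of each other list up to 6 genes past 2-fold between E16 and P3 by size and its best known gene, and the 3 nearest patterns of Tnc, Postn and Sparc (Tnn did not qualify). Tnr, Tnxb, Smoc1 and Fbln2 were named after their values were seen, as were Col5a2, Bmp1, Egfr, Ddr1 and markers below the floor. Members and lists were chosen with earlier results of these data known. Alternatives varied scaling, probe sets, floor and threshold.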

Additional observations from a re-analysis of the deposited data

How the results depend on the processing

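Each stage has 1 array, so no paired analysis or leaving out of a replicate was possible. Tnc, Ccn4 and Sparc stayed past 2-fold at P3 against both earlier stages under every scaling, probe set and floor alternative run. Against E18 they were 4.52-fold to 7.88-fold, 5.01-fold to 6.48-fold and 3.34-fold to 6.68-fold higher. Removing the floor or _x_at and _s_at probe sets could not alter these, nor could doubling the floor for Tnc and Sparc. The log2 difference of Thbs1 at P3 against E16 ranged from -1.32 to -0.27. With the floor at 2 times the median, 1 member was higher at E18 and 0 were lower at E18 or P3 than at E16. At a 3-fold threshold these counts were 0.

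The other lists were re-run with alternatives chosen after seeing the data. With the higher floor, 3 of 15 other matricellular genes and 2 of 18 receptors were lower at E18 against E16, beside 743 of all 9203 genes. Of other matricellular genes, 1 of 12 was higher at P3 against E18, beside 318 of 9037. At P3 against E16, 2 of 15 were higher and 3 lower, beside 558 and 1562 of 9277. With quantile normalization, 3 of 18 other matricellular genes were lower at E18 against E16, beside 867 of all 12039 genes. At P3 against E18, 0 of 20 were lower, beside 872 of 12117. Of matrix partners, 8 of 14 were higher at P3 against E18, beside 795 of 12117. With the mean over probe sets, 0 of 20 other matricellular genes and 1 of 20 receptors were lower at P3 against E18, beside 1036 of all 12136 genes. The first count was also 0 of 20 without probe sets whose names end in _x_at or _s_at, beside 1259 of 11633. At E18 against E16, 3 of 21 receptors were higher and 2 lower, beside 735 and 695 of 12055. Of matrix partners 1 of 14 and of TGF-beta genes 1 of 9 were lower in that comparison. At P3 against E16, 3 of 20 receptors were higher, beside 656 of 12217. With no floor, 3 of 25 other matricellular genes were lower and 4 of 22 receptors higher at P3 against E18. Of all 18193 genes, 2563 were lower and 1802 higher. Of matrix partners, 2 of 14 were higher at E18 against E16, beside 2160 of 18193. Scaled on genes above the floor, other matricellular genes numbered 0 lower at P3 against E18 and 3 lower at P3 against E16, and receptors 1 lower at P3 against E16. The causes were not tested.

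Over all genes, quantile normalization changed 493 higher and 1429 lower at P3 against E18 to 795 and 872, and 800 higher at P3 against E16 to 1228. With no floor, 2160 were higher and 2175 lower at E18 against E16 in place of 975 and 978, 1802 and 2563 at P3 against E18, and 2108 and 2986 at P3 against E16 in place of 800 and 1904. With the higher floor, 318 were higher at P3 against E18. At 1.5-fold and 3-fold thresholds, 1649 and 314 were higher and 3660 and 655 lower at P3 against E16. Scaling on genes above the floor gave 949 lower at P3 against E18 and 1282 lower at P3 against E16. Egfr turned from -1.34 to 0.73 at P3 against E18 under quantile normalization and with scaling on genes above the floor. Without probe sets ending in _x_at or _s_at, Ddr1 turned from 1.38 to -0.23 at E18 against E16 and from -1.83 to 0.04 at P3 against E18. The medians of other matricellular genes (-0.11) and TGF-beta genes (0.05) at E18 against E16 turned to 0.17 with no floor and to -0.0062 with the higher floor. Signal over background limits Tnn and the second Thbs1 probe set, both below the floor on every array.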

Other observations

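One further probe set carries the symbols Pald1 and Thbs1 together and was left out of the member counts. It had recovered signals of 1151 at E16, 827 at E18 and 478.5 at P3. P3 was 2.41-fold lower than E16, beside at least 2.42-fold lower for the brighter probe set that names Thbs1 alone.

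Among relatives of the members, Ccn1 and Tgfb3 changed direction between steps. Ccn1, another CCN family gene, read 150, 341 and 168 at E16, E18 and P3, 2.27-fold higher and then 2.03-fold lower by its brightest probe set. Its 4 probe sets ranged from 1.05-fold to 2.27-fold higher in the first step, and neither call held with their mean or without probe sets ending in _x_at or _s_at. The second call was also lost under quantile normalization and with scaling on genes above the floor. Tgfb3 read 604, 146 and 905.5, 4.13-fold lower in the first step and higher again in the second. Both were chosen after their values were seen.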
